A study of Mus musculus with 22 samples.

Results

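The nuclear genes of respiratory chain complexes I, III and IV were followed in mouse macrophages given a leucine metabolite, a bacterial product, or both. The members are all genes whose symbol on the array begins with Nduf, Uqcr, Cox4i, Cox5, Cox6, Cox7 or Cox8, which gave 72 of the 19505 genes named on the array, each measured by 1 probe set. They comprise 6 core and 30 supernumerary subunits of complex I, 8 complex I assembly factors (Ndufaf1 to Ndufaf8), 8 subunits of complex III, 12 complex IV subunits of general expression, and 8 isoforms of complex IV subunits known from particular tissues.

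The macrophages were grown from bone marrow of C57/bl6 mice in medium conditioned by L929 cells, a fibroblast line that supplies macrophage growth factor. There were 6 arrays of untreated M0 macrophages (Ctrl) and 6 of M0 macrophages with β-hydroxy-β-methylbutyrate (HMB, 1 mM), numbered 1 to 6. A further 5 arrays held macrophages given lipopolysaccharide (LPS, 10 ng/ml) and 5 held macrophages given both (HMB+LPS), numbered 2 to 6, with all treatments lasting 48 h. The study asked whether HMB moves macrophages towards an M1-like, inflammatory state. The labels do not say whether arrays of a group came from separate animals or cultures, and p-values cover no more than the scatter among these arrays, part of which may be technical.

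Complex I takes electrons from NADH and passes them to ubiquinone, complex III passes them on to cytochrome c, and complex IV hands them to oxygen, and each complex pumps protons across the inner mitochondrial membrane as it does so. In each complex a few conserved core subunits carry the flavin, iron-sulfur, heme or copper centres, while many small supernumerary subunits surround them and are needed for assembly and stability. Macrophages activated with LPS are known for a shift from respiration to glycolysis, during which nitric oxide made by Nos2 blocks respiratory enzymes and itaconate made by Acod1 inhibits complex II. Transcript levels say nothing direct of complex assembly or of oxygen use. In bulk RNA, fewer cells of a kind and less RNA per cell cannot be told apart.

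All values are log2 probe set intensities as deposited, and differences are on the log2 scale, given ± SE. A difference is called where limma's p, adjusted over all 22206 probe sets by the Benjamini-Hochberg method, is under 0.05. The arrays fell into sets that the study's groups do not name. Within Ctrl and HMB, numbers 5 and 6 differed from numbers 1 to 4 at 4271 probe sets, and when every array was placed along that difference without using the members, 8 arrays lay with numbers 5 and 6 (Ctrl 5 and 6, HMB 5 and 6, LPS 3 and 6, HMB+LPS 5 and 6, at 0.77 to 0.98) and 14 with numbers 1 to 4 (at -0.36 to 0.30). LPS 3 thus lay with numbers 5 and 6, and LPS 5 with numbers 1 to 4, against their own numbers. These are called the 8-array set and the 14-array set below, and each result is given over all arrays and within each set. They went with the strength of the Nos2 response to LPS: Nos2 stood at 16.19, 16.29 and 16.25 in LPS 2, 4 and 5 but at 5.64 and 5.74 in LPS 3 and 6, and at 15.88, 15.89 and 16.60 in HMB+LPS 2, 3 and 4 but at 9.85 and 9.78 in HMB+LPS 5 and 6, against 3.45 to 5.75 in Ctrl and HMB. Acod1 split less sharply. In the 8-array set it stood at 13.63 and 13.07 in LPS, at 15.78 and 15.95 in HMB+LPS and at 10.66 to 11.05 in Ctrl and HMB. In the 14-array set it stood at 15.34 to 17.26 with LPS and at 5.98 to 8.57 without. The macrophage marker list had a mean of 14.82 to 16.15 on every array, and the gap between positive and negative control probe sets was 3.65 to 5.26.

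The median level over all arrays ran up to 17.09 for Cox7c, a small complex IV subunit, and 31 of the 72 members were above the 95th percentile of the negative controls on all 22 arrays, 25 on some and 16 on none. On at least 5 arrays 53 of the 72 members were above it, as were 31.3% of all probe sets. Levels of different genes are not ranked here, since each probe set has its own response. Member levels were also steady: the median SD over the 22 arrays was 0.48, against 0.54 over all probe sets. Cox6a2, the heart and skeletal muscle isoform of complex IV subunit 6A, was the exception, with an SD of 2.65 and a range of 5.50 to 13.72. Next in spread came Ndufs8 (1.15), Cox6b2 (1.15), Uqcrh (0.82) and Ndufa4l2 (0.80).

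The remaining tissue isoforms stayed below that background level on every array. Cox4i2, the lung and hypoxia isoform, lay at 2.88 to 4.99, Cox7a1 and Cox8b, both of heart and muscle, at 4.63 to 6.81 and 3.23 to 6.47, and Ndufa4l2, a paralogue of Ndufa4 induced by hypoxia, at 2.82 to 5.97. The testis isoforms Cox6b2, Cox7b2 and Cox8c lay at 3.04 to 7.72, 4.07 to 5.78 and 3.72 to 5.65. Their general partners, by contrast, (Cox4i1, Cox6a1, Cox6b1, Cox7a2 and Cox8a) were above background on all 22 arrays, and Ndufa4 on 21. Cox6a1, the general partner of Cox6a2, lay at 16.20 to 17.00 on all 22 arrays, and Cox8a, the general partner of Cox8b, at 14.84 to 16.33.

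**Figure D1:**
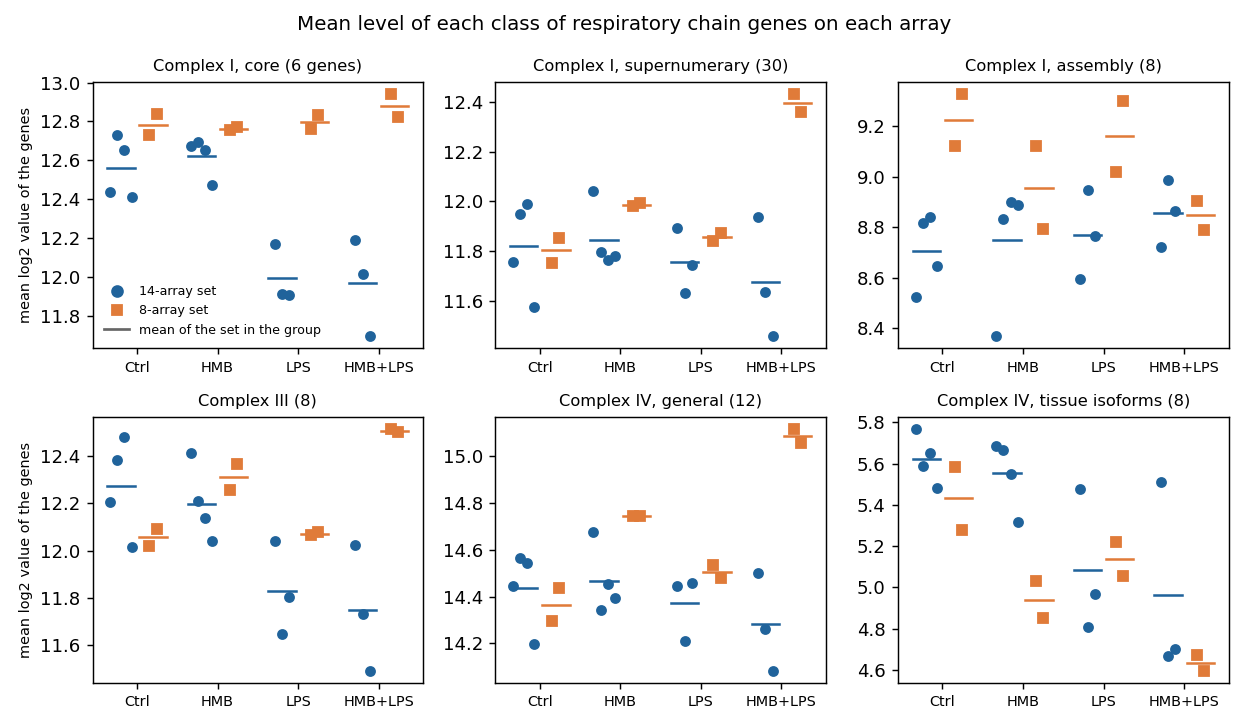
Mean log2 intensity of the members of each class on each array, by group (circles, 14-array set; squares, 8-array set; bars, mean of the set in the group). The complex I core mean was 11.91 to 12.17 in LPS arrays of the 14-array set against 12.41 to 12.73 in Ctrl, while all 8-array set values lay at 12.73 to 12.94.

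Over all arrays LPS left nearly all members without a call. In LPS minus Ctrl, 0 members rose and 1 fell of 72, against 0.788% of all probe sets that fell, and 6 members, all lower, had an unadjusted p under 0.05, which 14.3% of all probe sets had. The median difference of the members was -0.00, the same as over all probe sets (0.00), with 36 members above 0 and 36 below. The member called was Cox6b2 (-1.88, adjusted p = 0.0246), a testis isoform below background in both groups, for which no fold is given. It lost this call without Ctrl 4 (adjusted p = 0.0562), LPS 2 (0.0626) or LPS 5 (0.11). Ndufb11 (-1.03 ± 0.32, adjusted p = 0.106), Cox6a2 (-3.41 ± 1.17, adjusted p = 0.148), Ndufs8 (-1.28 ± 0.56, adjusted p = 0.29) and Ndufb7 (-0.77 ± 0.34, adjusted p = 0.299) did not pass.

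Within the 14-array set, where Nos2 was high in every LPS array, 7 members fell and 0 rose, against 6.33% of all probe sets that fell. The called members were 4 complex I subunits (Ndufs1, Ndufs8, Ndufb7 and Ndufb11), Uqcrfs1 of complex III, and the isoforms Cox6a2 and Cox6b2. The share of members called, 7 of 72, was near the background share, and the members' median difference was -0.02 against 0.01 over all probe sets. By class, 5 of 6 complex I core subunits lay below 0 with a median of -0.62, and 7 of 8 complex III subunits lay below 0 with a median of -0.51. The 30 supernumerary subunits (16 above 0, median 0.10), the 8 assembly factors (4 above 0, median -0.00) and the 12 general complex IV subunits (7 above 0, median 0.07) were spread around 0.

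Ndufs8, an iron-sulfur core subunit of the arm of complex I that reaches into the matrix, changed most among the subunits of general expression. Its level was 13.31, 13.18, 12.67 and 12.92 in Ctrl 1 to 4 and 12.11, 10.80 and 10.65 in LPS 2, 4 and 5. The groups did not overlap, and the difference was -1.84 ± 0.44 (adjusted p = 0.0129). Ndufs1, the largest core subunit, which carries several iron-sulfur clusters, stood at 11.42, 11.38, 12.03 and 11.57 in those Ctrl arrays and at 10.57, 11.01 and 10.70 in those LPS arrays, again without overlap (-0.84 ± 0.25, adjusted p = 0.0474). The other core subunits did not pass: Ndufs7, which holds the last cluster before ubiquinone, had a difference of -0.70 (adjusted p = 0.131), Ndufv2 one of -0.54 (adjusted p = 0.246), Ndufv1, the NADH-binding subunit, one of -0.02 (adjusted p = 0.973), and Ndufs3 one of 0.58 (adjusted p = 0.228). Calls thus covered 2 of the 6 core subunits.

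Among supernumerary subunits, both called members belong to the membrane arm. Ndufb11, encoded on the X chromosome, stood at 11.01, 11.19, 11.20 and 10.45 in Ctrl 1 to 4 and at 9.72, 8.83 and 10.03 in LPS 2, 4 and 5, without overlap (-1.44 ± 0.37, adjusted p = 0.0208). Ndufb7 stood at 10.65, 11.16, 11.50 and 10.69 against 10.33, 9.45 and 9.52, also without overlap (-1.23 ± 0.32, adjusted p = 0.0195). Neither was above the background level on any of the 3 LPS arrays, so their sizes are not bounded. Of the other called subunits, Ndufs8 was above it on 2 of the 3 LPS arrays and Ndufs1 on 1. Ndufa10, a supernumerary subunit related to nucleoside kinases, lay just outside the threshold (-0.85, adjusted p = 0.0532).

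Uqcrfs1, the Rieske iron-sulfur protein of complex III, which moves electrons from ubiquinol towards cytochrome c, fell in the same comparison. Its level was 12.65, 12.55, 12.85 and 11.96 in Ctrl 1 to 4 and 11.54, 10.93 and 11.33 in LPS 2, 4 and 5. The lowest Ctrl array lay above the highest LPS array, of which 1 of 3 was above the background level, and the difference was -1.23 ± 0.29 (adjusted p = 0.012). The 2 large structural subunits Uqcrc1 (-0.74, adjusted p = 0.147) and Uqcrc2 (-0.66, adjusted p = 0.221) did not pass, nor did the small subunits Uqcr11 (-1.12, adjusted p = 0.0788) and Uqcr10 (0.86, adjusted p = 0.174). Of the general complex IV subunits none was called: Cox4i1, a regulatory subunit that binds ATP, had a difference of -0.91 (adjusted p = 0.265), and Cox8a one of 0.64 (adjusted p = 0.211).

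Several calls rested on single arrays. Ndufs8 lost its call without LPS 4 (adjusted p = 0.0512) or LPS 5 (0.0767) and Uqcrfs1 without LPS 4 (0.0525). Ndufb11 lost its call without Ctrl 2 (adjusted p = 0.0602), Ctrl 3 (0.0599) or LPS 4 (0.0908) and after quantile normalization (0.0634), and Ndufb7 without Ctrl 2 (0.056), Ctrl 3 (0.0645), LPS 4 (0.0713) or LPS 5 (0.0885). Cox6b2 (-1.98 ± 0.59, adjusted p = 0.0438) lost its call in 13 of 20 alternatives, with an adjusted p of 0.217 without LPS 5, and Ndufs1 lost its call in 16 of 21 alternatives. The gap between positive and negative controls was 3.96 to 4.97 in the Ctrl arrays of the 14-array set and 3.65 to 4.40 in its LPS arrays, and its part in these differences was not tested.

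**Figure D2:**
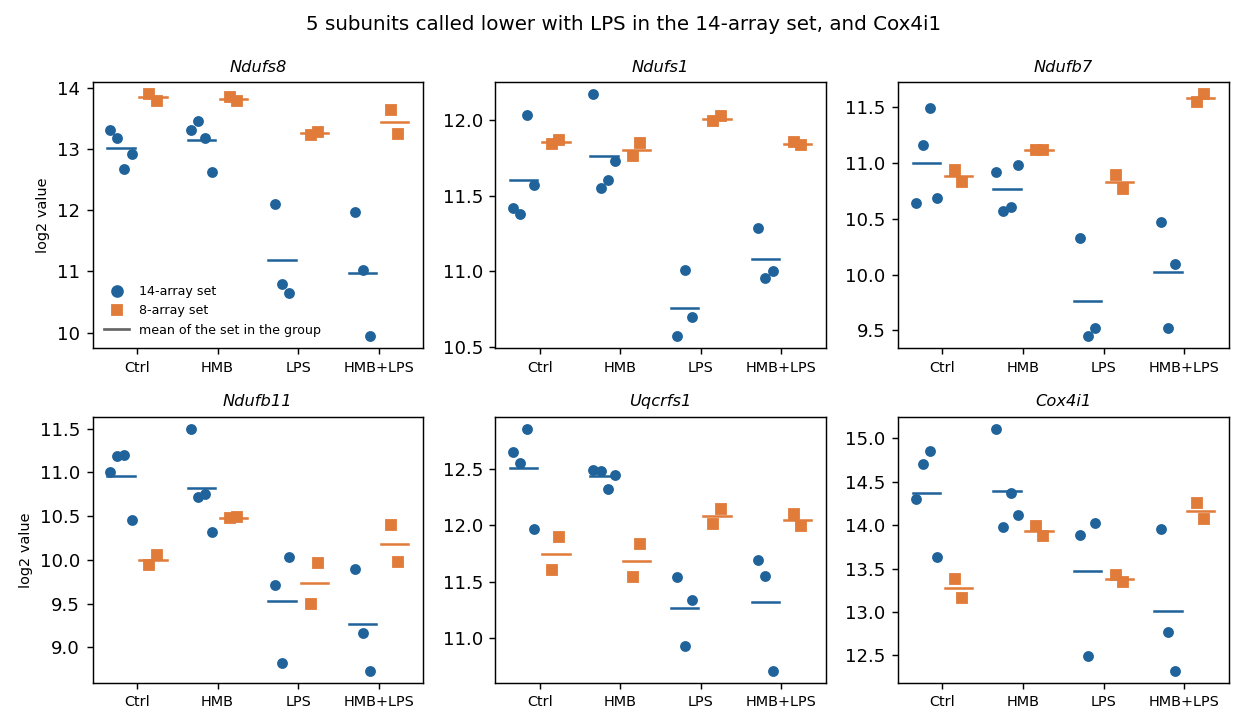
Log2 intensity of 6 subunits on each array, by group (circles, 14-array set; squares, 8-array set; bars, mean of the set in the group). Ndufs8 was 12.67 to 13.31 in Ctrl and 10.65 to 12.11 in LPS within the 14-array set, and 13.23 and 13.28 in LPS 3 and 6.

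The promoters of 3 subunit genes that fell in LPS with and without HMB are shown, with that of Cox6a1, which was not called, because respiratory chain genes are known for sites of the factors NRF1, Sp1, YY1 and ETS proteins near their start. Each run covers 250 bases before and 50 after the start in the RefSeq annotation of GRCm38.p6, read 5′ to 3′ on the gene's strand, with matched letters in capitals. Ndufs8 lies at chr19:3912725-3913024, Uqcrfs1 at chr13:30545267-30545566, Ndufb11 at chrX:20617570-20617869 and Cox6a1 at chr5:115348909-115349208, all on the minus strand.
Ndufs8 promoter: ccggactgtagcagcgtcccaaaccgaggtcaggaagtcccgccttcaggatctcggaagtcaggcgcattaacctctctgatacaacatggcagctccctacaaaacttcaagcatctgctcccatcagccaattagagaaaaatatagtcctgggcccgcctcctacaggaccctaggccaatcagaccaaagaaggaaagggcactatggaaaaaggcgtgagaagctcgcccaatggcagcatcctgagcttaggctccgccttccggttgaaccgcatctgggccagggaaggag
Uqcrfs1 promoter: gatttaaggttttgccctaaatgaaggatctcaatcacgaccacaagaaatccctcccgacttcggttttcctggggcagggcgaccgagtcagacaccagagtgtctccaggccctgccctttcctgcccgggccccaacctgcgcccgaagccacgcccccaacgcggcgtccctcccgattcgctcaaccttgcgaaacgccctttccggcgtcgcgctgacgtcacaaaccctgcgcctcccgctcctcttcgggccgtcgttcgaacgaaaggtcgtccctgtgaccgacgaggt
Ndufb11 promoter: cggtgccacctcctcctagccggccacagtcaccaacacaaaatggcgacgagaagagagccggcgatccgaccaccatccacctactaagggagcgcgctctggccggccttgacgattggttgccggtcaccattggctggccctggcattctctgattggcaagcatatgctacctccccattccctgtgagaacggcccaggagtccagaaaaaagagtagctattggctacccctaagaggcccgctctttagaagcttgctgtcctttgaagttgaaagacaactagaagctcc
Cox6a1 promoter: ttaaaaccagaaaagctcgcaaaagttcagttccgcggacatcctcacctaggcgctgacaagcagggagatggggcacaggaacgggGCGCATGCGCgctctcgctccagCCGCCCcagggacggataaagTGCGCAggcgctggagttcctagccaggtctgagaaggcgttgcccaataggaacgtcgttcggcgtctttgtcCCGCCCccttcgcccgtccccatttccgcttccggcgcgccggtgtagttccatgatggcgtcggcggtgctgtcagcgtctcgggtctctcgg
The letters searched on both strands were GCATGCGC and the shorter TGCGCA for NRF1, GGGCGG for Sp1, AAGATGGC for YY1 and CCGGAAGT for ETS proteins. The Cox6a1 window held 5 matches (GCATGCGC once on each strand in overlap, TGCGCA, and GGGCGG at 2 places on the other strand), and the windows of Ndufs8, Uqcrfs1 and Ndufb11 held none of these letters. This does not divide called from uncalled members: 19 of the member windows held none, those of the uncalled Ndufv1 and of Cox6b1 and Uqcr10 among them, and the window of Ndufa10, which fell with LPS and HMB, held GGGCGG at 2 places. RefSeq windows were matched for 59 of the 72 members, 61 windows in all, and Cox6a2 was not among them. GCATGCGC was present in 13.1% of member windows against 2.71% of all 32851 windows of the same length, TGCGCA in 24.6% against 7.76%, AAGATGGC in 13.1% against 2.75%, GGGCGG in 45.9% against 35.7% and CCGGAAGT in 6.56% against 3.89%. At least 1 of them was present in 68.9% of member windows and in 41.7% of all windows. A match is a description of the letters and not a binding site.

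The effect of LPS was also measured with HMB present, on other arrays. In HMB+LPS minus HMB over all arrays, 1 member fell, Cox6b2 again (-1.65 ± 0.43, adjusted p = 0.0328, lost in 9 of 31 alternatives), against 1.54% of all probe sets that fell, and Ndufb11 had -1.07 ± 0.32 (adjusted p = 0.0668). Within the 14-array set 5 members fell and 0 rose, against 5.82% of all probe sets that fell. Ndufs8 went from 13.30, 13.46, 13.18 and 12.63 in HMB 1 to 4 to 11.97, 11.02 and 9.95 in HMB+LPS 2, 3 and 4 (-2.16 ± 0.44, adjusted p = 0.00473). The 2 groups did not overlap, and this call was kept in all 21 alternatives, but 1 of the 3 HMB+LPS arrays was above the background level.

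The other members called in that comparison were Cox6a2, Ndufb11, Ndufa10 and Uqcrfs1. Ndufb11 went from 11.49, 10.72, 10.75 and 10.32 to 9.90, 9.17 and 8.73 (-1.55 ± 0.37, adjusted p = 0.0137), and Ndufa10 from 11.94, 12.38, 12.25 and 12.13 to 10.75, 11.15 and 11.41 (-1.07 ± 0.26, adjusted p = 0.0162). Uqcrfs1 went from 12.48, 12.48, 12.32 and 12.44 to 11.69, 11.55 and 10.71 (-1.12 ± 0.29, adjusted p = 0.0237). In all of these the groups did not overlap, and the share of all probe sets without overlap was not counted. None of the 3 HMB+LPS arrays was above the background level for Ndufb11, whose size is not bounded, and 1 of the 3 was for Ndufa10. Ndufs1 (-0.68, adjusted p = 0.118) and Ndufb7 (-0.74, adjusted p = 0.183) did not pass. Ndufa10 lost its call without HMB 2 (adjusted p = 0.0501), HMB+LPS 2 (0.0854) or HMB+LPS 3 (0.0551), Ndufb11 without HMB+LPS 3 (0.0598) or HMB+LPS 4 (0.0774), and Uqcrfs1 without HMB 2 (0.0575), HMB 4 (0.0516) or HMB+LPS 4 (0.132).

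**Figure D3:**
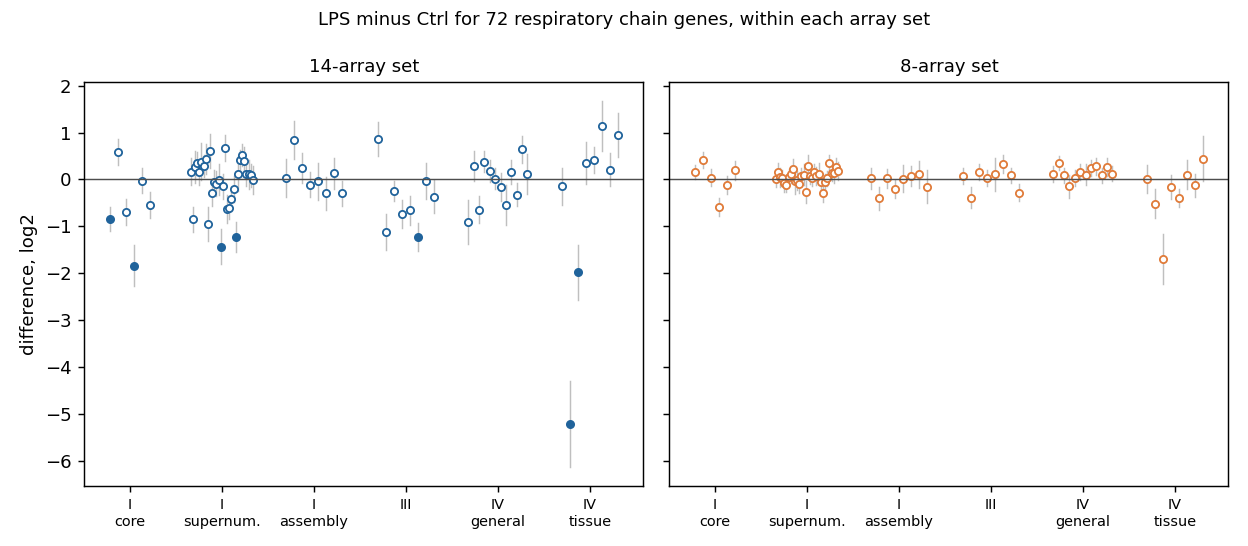
Log2 difference ± SE of each member in LPS minus Ctrl within each array set (filled points, adjusted p under 0.05). Cox6a2 lay at -5.22 in the 14-array set and at -0.52 in the 8-array set, and Ndufs8 at -1.84 and -0.59.

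In the 8-array set, where Nos2 was near its Ctrl level in LPS, no subunit was called. There 0 members passed in LPS minus Ctrl, against 0.554% of all probe sets, 3 had an unadjusted p under 0.05, and the median member difference was 0.07. Ndufs8 was 13.23 and 13.28 in LPS 3 and 6 against 13.89 and 13.79 in Ctrl 5 and 6 (-0.59 ± 0.19, adjusted p = 0.348), and Uqcrfs1 was 12.01 and 12.14 against 11.60 and 11.89 (0.33, adjusted p = 0.643). Ndufs1 differed by 0.15 (adjusted p = 0.808), Ndufb7 by -0.05 (adjusted p = 0.953) and Ndufb11 by -0.27 (adjusted p = 0.769). HMB+LPS minus HMB had 0 called members in these arrays, against 5.61% of all probe sets, with Ndufa13 (0.80, adjusted p = 0.0566) nearest to the threshold. Of the 72 members 59 lay above 0 there, with a median of 0.30 against -0.02 over all probe sets. An unadjusted p under 0.05 was found for 26 members, 23 of them higher, and for 19.1% of all probe sets. Without dim probe sets, which left 53 members and 6957 probe sets, 22 members were called. The count over all probe sets in that setting stands in the closing section.

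The difference between both sets was itself tested. For LPS minus Ctrl it was called for 0 members, against 3.10% of all probe sets, and 8 members had an unadjusted p under 0.05, which 13.3% of all probe sets had. Uqcrfs1 lay nearest to the threshold (1.56 ± 0.42, adjusted p = 0.0504), then Cox6a2 (4.70 ± 1.36, adjusted p = 0.0721), Ndufs1 (1.00, adjusted p = 0.175), Ndufa10 (1.02, adjusted p = 0.2) and Ndufb7 (1.18, adjusted p = 0.218). The fall of these subunits is therefore called within the 14-array set, and is not shown to be absent from the 8-array set.

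Some members also differed between the sets in arrays without LPS. In M0 arrays, with each number's Ctrl and HMB arrays averaged, numbers 5 and 6 differed from numbers 1 to 4 in 7 members: 4 were higher, against 6.31% of all probe sets, and 3 were lower, against 4.01%. The members' median difference was 0.18 against -0.04 over all probe sets, and 47 of 72 lay above 0. What the numbers stand for is not in the labels, and because the split was noticed in these data its p-values serve as a description.

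The higher members included Ndufa4, first described with complex I and now counted with complex IV. It lay at 13.68 and 13.75 in Ctrl 5 and 6 and at 13.99 and 13.90 in HMB 5 and 6, and the 8 arrays of numbers 1 to 4 had a lowest value of 12.28, a median of 12.52 and a highest value of 12.77 (1.30 ± 0.19, adjusted p = 0.00785). Also higher were the complex I assembly factor Ndufaf6 (lowest 9.48, median 9.75, highest 9.96 in numbers 5 and 6 against 7.83, 8.59 and 8.87, difference 1.20 ± 0.21, adjusted p = 0.0135) and the supernumerary subunits Ndufb6 (0.94 ± 0.20, adjusted p = 0.0239) and Ndufa12 (0.75 ± 0.20, adjusted p = 0.0492). None of these 4 overlapped between numbers, and the share of all probe sets without overlap was not counted. Ndufa12 lost its call in 12 of 17 alternatives, and Ndufb6 without HMB 3 (adjusted p = 0.0538) or HMB 5 (0.0559).

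Members of all 3 complexes were among the lower ones. Uqcrh, the acidic hinge subunit of complex III, which helps cytochrome c dock, lay at 12.58 and 12.60 in Ctrl 5 and 6 and at 13.44 and 13.51 in HMB 5 and 6, against a lowest value of 14.16, a median of 14.48 and a highest value of 15.21 in numbers 1 to 4 (-1.49 ± 0.24, adjusted p = 0.0103). Ndufa6, a supernumerary complex I subunit, lay at 11.53 to 11.92 against 12.56 to 13.60 (-1.45 ± 0.27, adjusted p = 0.0157). Cox7a2l, placed here with the general complex IV subunits, lay at 13.85 to 14.59 against 14.91 to 16.08 (-1.36 ± 0.28, adjusted p = 0.0218). The values of all 3 were apart on every array, again without a count over all probe sets.

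HMB alone left the members without a call. In HMB minus Ctrl 0 members passed, against 0% of all probe sets, and 0 members had an unadjusted p under 0.05 (410 of all probe sets did). That fit did not pair arrays by number. With the number as a block in Ctrl and HMB arrays only, 0 members passed as well. The members with the smallest p were Cox8c (0.45 ± 0.27), Cox6b1 (0.33 ± 0.26), Cox6a2 (-1.37 ± 1.11), Ndufa1 (0.35 ± 0.29) and Ndufs6 (0.24 ± 0.20), each with an adjusted p of 1. In HMB+LPS minus LPS 0 members passed as well, against 0% of all probe sets, 1 had an unadjusted p under 0.05 (686 of all did), and the smallest p values were those of Cox8b (-1.03 ± 0.40), Ndufa1 (0.63 ± 0.32), Ndufaf8 (-0.57 ± 0.29), Cox7a2 (0.50 ± 0.30) and Ndufaf2 (-0.48 ± 0.33). The difference between both HMB effects gave 0 called members and 0% of all probe sets. Within the 14-array set, HMB minus Ctrl and HMB+LPS minus LPS each gave 0 members, against 0% and 0% of all probe sets.

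The 8-array set held calls in both HMB comparisons. There, in HMB+LPS minus LPS, 6 members rose and 1 fell, against 2.20% of all probe sets that rose and 2.49% that fell. Of the 72 members 59 lay above 0, with a median of 0.33, against 48.4% of all probe sets above 0 and a median of -0.02. By class, 29 of 30 supernumerary complex I subunits lay above 0 (median 0.49), 7 of 8 complex III subunits (0.33) and 12 of 12 general complex IV subunits (0.58), but 3 of 8 assembly factors (-0.16) and 3 of 8 tissue isoforms (-0.43). The 6 core subunits had a median of 0.05. Ndufaf1, Ndufaf2, Ndufaf5, Ndufaf7 and Ndufaf8 were above the background level on 0 of the 22 arrays and Ndufaf6 on 2. Of the tissue isoforms only Cox6a2 was above it on any. Values so low cannot show whether these classes differ from the brighter ones. HMB+LPS minus HMB uses the same HMB+LPS arrays and had 59 of 72 members above 0 as well, and the mean over all members was 11.68 and 11.61 in HMB+LPS 5 and 6, the highest of the 22 arrays, against 11.34 and 11.37 in LPS 3 and 6, 11.45 and 11.41 in HMB 5 and 6, and 11.31 and 11.38 in Ctrl 5 and 6.

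Ndufa1, an X-linked subunit of complex I needed for its assembly, rose most. It lay at 12.65 and 12.66 in HMB+LPS 5 and 6 and at 11.01 and 11.04 in LPS 3 and 6 (1.63 ± 0.17, adjusted p = 0.0141), with 11.77 and 12.07 in HMB 5 and 6 and 11.04 and 11.01 in Ctrl 5 and 6. Both arrays with HMB stood above both arrays without it, with and without LPS. The arrays were not paired in this fit, and HMB minus Ctrl of Ndufa1 in this set was not called (0.90, adjusted p = 0.0903). Cox6b1, a complex IV subunit that faces the intermembrane space, gave the same order: 14.24 and 14.19 with HMB and LPS, 13.10 and 13.04 with LPS (1.14 ± 0.17, adjusted p = 0.0248), 13.69 and 13.88 with HMB, and 12.94 and 13.13 in Ctrl. Its HMB minus Ctrl in this set was not called either (0.75, adjusted p = 0.124). 

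The other members that rose were Cox7a2, the general isoform of complex IV subunit 7A (13.86 and 13.70 against 12.89 and 12.44, 1.12 ± 0.23, adjusted p = 0.0487), Uqcr10, a small complex III subunit (12.62 and 12.68 against 11.80 and 11.55, 0.98 ± 0.17, adjusted p = 0.0334), Ndufa13 of complex I (14.15 and 14.12 against 13.04 and 13.36, 0.94 ± 0.18, adjusted p = 0.0419) and Uqcrh (13.54 and 13.61 against 12.62 and 12.74, 0.90 ± 0.16, adjusted p = 0.0346). In none of them did the groups overlap. With 2 arrays a group this also held for uncalled members such as Ndufa2 and Cox4i1. The share of all probe sets without overlap was not counted. Ndufb8 (0.93, adjusted p = 0.0502), Ndufb7 (0.75, adjusted p = 0.0507) and Ndufb5 (0.90, adjusted p = 0.0522) lay just outside the threshold.

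These calls rest on 2 arrays a group. With the replicate number as a block 0 members were called, in a fit where LPS 3 has no partner of its number, against 27 without dim probe sets and 32 with an intensity trend in the spread. With the trend 3527 of all 22206 probe sets were called. The setting without dim probe sets left 53 members and 6957 probe sets, and its count over those probe sets stands in the closing section. Without LPS 6, HMB+LPS 5 or HMB+LPS 6 there were 0, and leaving out any 1 of the 8 arrays left at most 2, while with a spread shared over both sets Ndufa1 (adjusted p = 0.0329) and Cox6b1 (0.0489) kept their calls. The difference of HMB+LPS minus LPS between both sets was called for 0 members, against 0.0630% of all probe sets, with Cox6b1 (1.36 ± 0.33, adjusted p = 0.194) and Ndufa1 (1.67 ± 0.43, adjusted p = 0.221) nearest. Nos2 was also higher with HMB in these LPS arrays, by the values given above, and its part in the members' difference was not tested.

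**Figure D4:**
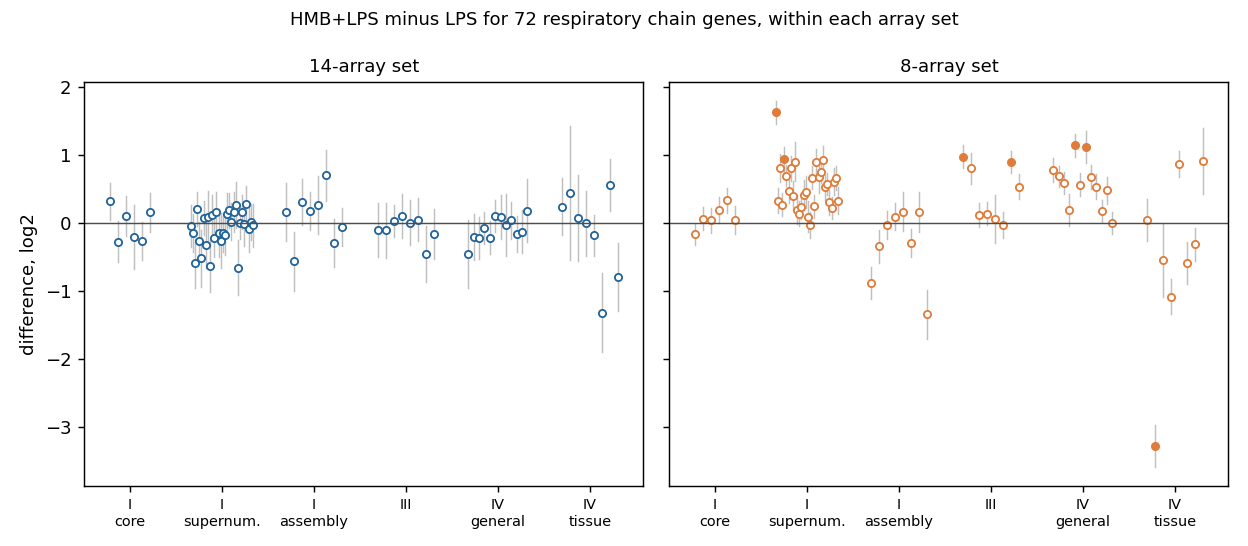
Log2 difference ± SE of each member in HMB+LPS minus LPS within each array set (filled points, adjusted p under 0.05). In the 8-array set 59 of 72 members lay above 0, and in the 14-array set 34 of 72 did.

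Cox6a2 was the member with the widest range, and its level followed more than 1 difference between arrays. It lay at 13.32, 11.78, 10.94, 9.67, 10.12 and 10.50 in Ctrl 1 to 6 and at 13.72, 12.17, 11.40, 8.97, 6.06 and 5.76 in HMB 1 to 6. It lay at 6.83, 9.41, 6.30, 5.50 and 10.17 in LPS 2 to 6 and at 7.38, 6.49, 6.06, 6.70 and 6.29 in HMB+LPS 2 to 6. The low arrays were thus all those with LPS and a high Nos2, and all 4 arrays of the 8-array set that had HMB.

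Within the 14-array set the LPS difference of Cox6a2 was -5.22 ± 0.92 (adjusted p = 0.00151) without HMB and -4.92 ± 0.92 (adjusted p = 0.00251) with it, and both calls were kept in all 21 alternatives. None of the LPS arrays was above the background level, and with the dim group set at that level the first difference is bounded at 0.11 and the second at 0.46, so the sizes above are those of the measured means. HMB minus Ctrl in the same arrays was 0.14. In the 8-array set the values were otherwise: LPS minus Ctrl was -0.52 ± 0.31 (adjusted p = 0.648), while HMB minus Ctrl was -4.40 ± 0.31 (adjusted p = 0.0144, means 5.91 and 10.31), the only one of 72 members called there, against 0.261% of all probe sets that fell. HMB+LPS minus LPS was -3.29 ± 0.31 (adjusted p = 0.0107). Cox6a2 was above the background level on none of the arrays with HMB, so the first of these is bounded at 0.00, and for the second, with 1 of 2 LPS arrays above it, no bound can be given.

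The HMB call of Cox6a2 rests on HMB 5 and 6 and on how the spread was estimated. The adjusted p was 0.167 with the replicate number as a block, which treats same-numbered arrays as pairs, and 0.27 with the spread shared over both sets. The difference of its HMB effect between the sets was -4.54 ± 1.33 (adjusted p = 0.794), with 0 members and 0% of all probe sets called, and under the replicate block the adjusted p was 0.0298.

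Muscle markers were set beside this muscle isoform. Of the 14 markers on the muscle list, all matched, the mean level was 4.13 to 5.24 on all arrays, with Acta1 at 3.26 to 5.08, Myh4 at 2.36 to 5.43, Des at 2.34 to 4.54 and Mb at 3.32 to 5.39. All 14 lay below the background level (9.79 to 11.81) on every array, the highest value being 9.05, so no fold is given for them. Tnni2, a fast muscle troponin, was called lower with LPS in the 14-array set (adjusted p = 0.00000124), at 6.97 to 8.12 in Ctrl 1 to 4 and 2.59 to 3.93 in LPS 2, 4 and 5. Pygm, muscle glycogen phosphorylase, stood at 8.67 and 8.88 in HMB 5 and 6 against 6.05 and 5.06 in Ctrl 5 and 6 (adjusted p = 0.0743), opposite in sign to Cox6a2. The fibroblast list had a mean of 6.35 to 7.55 in the 14-array set and 4.86 to 6.07 in the 8-array set, and its part in the members' differences was not tested.

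**Figure D5:**
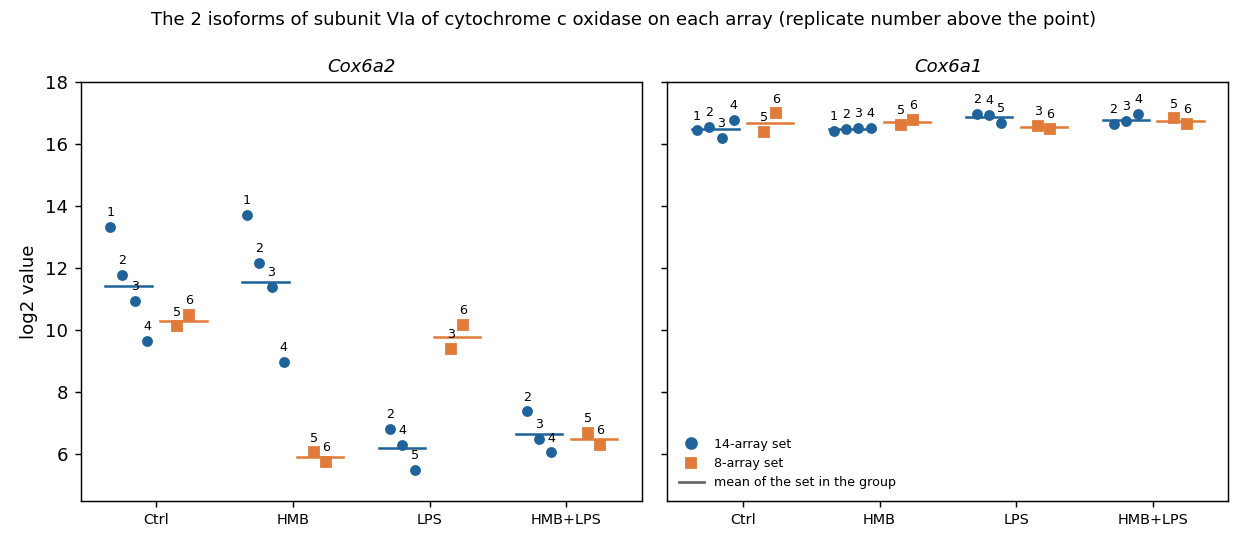
Log2 intensity of Cox6a2 and Cox6a1 on each array, by group, with the replicate number above each point (circles, 14-array set; squares, 8-array set; bars, mean of the set in the group). Cox6a2 ranged from 5.50 to 13.72 and Cox6a1 from 16.20 to 17.00.

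Genes outside the member rule, which belong to these complexes or work beside them, gave a mixed picture in LPS minus Ctrl within the 14-array set. Of all probe sets 4.22% rose and 6.33% fell there, and none of the counts below is read as a property of a list. Of 8 complex II genes 1 rose, the assembly factor Sdhaf1 (adjusted p = 0.0224), and the list's median was -0.44. Sdhaf1 lay at 4.71 to 9.75, under the lowest background level of any array (9.79), so no fold is given for it. Of 17 ATP synthase genes 1 rose (Atp5md, 1.04, adjusted p = 0.00431) and 2 fell, both encoding the c subunit of the rotor (Atp5g2, -1.74, adjusted p = 0.003, and Atp5g3, -1.28, adjusted p = 0.02). Among 24 matched assembly genes of complexes III and IV, 2 rose and 1 fell.

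The gene that fell there was Bcs1l (-2.24, adjusted p = 0.00166), whose product inserts the Rieske protein Uqcrfs1 into complex III. Its LPS difference also differed between the array sets (2.26, adjusted p = 0.045). Bcs1l lay at 7.30 to 10.74 over all arrays, with a median of 9.94. The background level was 9.79 to 11.81, so the sizes of its differences are uncertain. The genes that rose were Cox17 (1.04, adjusted p = 0.0347), a copper chaperone, and Cox18 (1.16, adjusted p = 0.0235), which helps insert a core subunit of complex IV. Cox18 lay at 9.38 to 11.47 over all arrays, also close to the background level. Cyc1, cytochrome c1, is a subunit of complex III that the symbol rule left out of the members. It did not pass without HMB (0.16), and it lay at 8.35 to 10.35 over all arrays, also close to the background level. The electron carrier Cycs (0.50) did not pass without HMB either. With HMB Cycs rose (0.74, adjusted p = 0.0439), as did 4.46% of all probe sets.

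Of 12 matched regulators 1 rose, Hif1a, the oxygen-sensing factor (1.94, adjusted p = 0.0000496), and over all arrays it rose as well (1.30, adjusted p = 0.0282), where 1.08% of all probe sets rose. Of 13 genes used as a measure of mitochondrial mass none was called, with a median of -0.45. Between numbers, 4 of these 13 were higher in numbers 5 and 6, against 6.31% of all probe sets (Tomm40, adjusted p = 0.0206, Phb 1.24, adjusted p = 0.0312, Immt 1.10, adjusted p = 0.0334, and Hspd1 1.00, adjusted p = 0.047), with a median of 0.47. Subunits encoded by the mitochondrial genome were not matched and were not analysed here.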

How the data were processed

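RNA of bone marrow-derived macrophages was measured on 22 Clariom S arrays. The values deposited by the authors are log2 intensities per probe set, 1 column per array. How background was corrected and arrays normalized, and with which software, is not given in the sources used here. Of 28846 probe sets, 6640 controls were left out and 22206 were tested as deposited, without a filter. Genes came from the platform annotation, with the probe set of highest mean for each gene. Groups and replicate numbers came from the labels.

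Differences were tested, two-sided, in R 4.3.3 with limma 3.58.1 (eBayes on lmFit and contrasts.fit), all 22 arrays and 4 group means in 1 fit, and again within each array set, with Benjamini-Hochberg adjustment over 22206 probe sets and a threshold of 0.05. Array sets were defined from the data, from 3234 probe sets without the members or probe sets that LPS moved, at a position of 0.5, and are no groups of the study. The background level is the 95th percentile of 5222 negative controls on each array, a strict level. Scripts were tested on simulated data.

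Same-numbered Ctrl and HMB arrays deviated together from their group means (r of 0.18 to 0.63 for 6 pairs), so the number served as a block among the alternatives. The split of numbers 5 and 6 from numbers 1 to 4 is part of these deviations, so r does not by itself show pairing. The main fits did not pair arrays, so differences between numbers enter their SE. Of the 6 Ctrl arrays 4 correlated best with the HMB array of their own number. Arrays give no read depth, and their number limits the precision. Members named were those past the threshold (up to 10 per direction and comparison, or the 5 with the smallest p), isoform pairs, the 5 with the largest SD and the catalytic core. Members and gene lists were chosen with earlier results of these data known. Alternatives were other scalings, filters, variance estimates, blocks and leaving out each array. Promoters are RefSeq windows of GRCm38.p6.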

Additional observations from a re-analysis of the deposited data

Results flagged for a closer look

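In the 5 or 6 arrays of each treatment, the values of the 35 named members and the mean of all members were examined, 144 groups of values, and 5 held an array far from the others by Dixon's criterion, which chance gives in about 1 of 20 groups. Ndufb11 stood at 11.49 in HMB 1, with the nearest HMB array at 10.75. Ndufa10 stood at 11.64 in Ctrl 1, the nearest being 12.11. Ndufa6 stood at 12.85 in LPS 2, the nearest being 12.02. Cox4i2, below background throughout, stood at 3.20 in Ctrl 4 (nearest 3.67) and at 4.19 in LPS 3 (nearest 3.65). No explanation was tested.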

How the results depend on the processing

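Numbers of members called depended on the setting, and the cause was not tested unless the setting itself gives it (fewer probe sets or arrays). Without dim probe sets, 53 members and 6957 probe sets were left, and counts in that setting are out of these. LPS minus Ctrl (1 member, 414 probe sets) gave 0 without dim probe sets, with only the groups compared (117), by the methods' t-test (9) or without arrays of low control separation (38), and 2 with the array set as a term (1482); leaving out single arrays gave 0 to 1. HMB+LPS minus HMB (1, 785) gave 0 by the t-test (423) and 3 with the array set as a term (1982), and 0 to 2 on leaving out single arrays; all probe sets were 357 without low separation and 1222 with separation as a covariate. Numbers 5 and 6 against 1 to 4 (7, 2291) gave 16 without dim probe sets, 13 with an intensity trend and 19 from 12 arrays with HMB as a term (4271), and 5 to 8 without single arrays. Apart from single arrays left out, its count over all probe sets was 2179 to 4271. Within the 14-array set LPS minus Ctrl (7, 2341) gave 4 with only the groups compared and 5 under the replicate block. Leaving out single arrays gave 3 to 8 (3 without Ctrl 2 or LPS 5). HMB+LPS minus HMB there (5, 2283) gave 11 without dim probe sets, 8 under the replicate block and 11 from the fit of 8 means (3120). Leaving out single arrays gave 3 to 6 (3 without HMB 2, HMB+LPS 3 or HMB+LPS 4). Apart from single arrays left out, the count over all probe sets was 1996 to 3367 in the first comparison and 1860 to 3254 in the second.

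Within the 8-array set, LPS minus Ctrl (0, 123 probe sets) gave 1 without dim probe sets (673) and 1 with the trend (765), and 1, 10 and 21 probe sets under the replicate block, with only the groups and from 8 means. HMB minus Ctrl (1, 107) gave 12 (1769), 10 (1861), 0 (0) under the block, 0 (0) with only the groups, 0 (11) from 8 means and 0 to 1 without single arrays. HMB+LPS minus LPS (7, 1043) gave 11 after quantile normalization, 27 (2818), 32 (3527), 0 (0) under the block, 0 (0) with only the groups, 2 (107) from 8 means and 0 to 2 without single arrays. HMB+LPS minus HMB (0, 1245) gave 22 (2209), 24 (2725) and 1 (394) under the block, with 339 and 239 probe sets in the last settings. Differences between sets in LPS minus Ctrl (0, 688) gave 3 without dim probe sets, 2 with the trend and 1 under the replicate block. Single arrays left out gave 0 to 2, and all other settings gave 628 to 837 probe sets for these differences. Those of the HMB effects were chosen after seeing the data, as was the block with only Ctrl and HMB, which gave 0: HMB minus Ctrl (0, 0) gave 1 under the replicate block (14), with 3, 5 and 5 probe sets by quantile, without dim probe sets and by trend, and HMB+LPS minus LPS (0, 14) gave 1 without dim probe sets (32), 22 by trend and 6 under the block.

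Cox6a2 changed sign where it was not called: its difference between HMB effects (0.32) was -0.55 without low separation and -0.47 to 1.12 without single arrays; its HMB minus Ctrl in the 14-array set (0.14) was -0.58 to 1.01 without single arrays, and its HMB+LPS minus LPS there (0.44) was -0.012 under the replicate block. For the other groups not every same-number pair correlated over 0.1, so they are taken to share only a number. For LPS and HMB+LPS r was 0.62, 0.54 and 0.60 for numbers 2, 4 and 6 but -0.51 and -0.52 for 3 and 5, whose LPS arrays lie in the other set from their HMB+LPS arrays; whether these LPS numbers were exchanged was not tested. It was -0.38 to 0.46 for Ctrl and LPS and 0.08 to 0.42, positive in all 5 pairs, for HMB and HMB+LPS. All members have 1 probe set, so other probe sets of a gene gave no value, and the difference between HMB effects already uses all groups. Of 401 alternatives for the counts of members called, 329 stayed within 1.5 times the main count. These include comparisons that stayed at 0 called members throughout, such as HMB minus Ctrl.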
